A study of Mus musculus with 14 samples.

Results

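The 10 genes described here build and load MHC class I, the molecule that shows peptides from inside a cell to CD8+ T cells. Their transcripts were counted in sinusoidal endothelial cells of mouse liver (LSECs), the perforated endothelium of the liver capillaries. The genes were chosen by name: H2-K1, H2-D1, B2m, Tap1, Tap2, Tapbp, Psmb8, Psmb9, Psmb10 and Nlrc5. Each was found through the RefSeq transcript identifier of its target, and all 10 had 1 target among the 23930 in the data. All 10 also had enough reads to be tested, as had 14168 targets in all.

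Of 14 libraries, 7 came from aged LSECs (10 to 11 months) and 7 from young LSECs (8 to 10 weeks). All were from wild-type female C57BL/6J mice, and the cells had been sorted as CD45-dim, STAB2-high and CD146-high. Both ages were collected in each experiment. Experiment 1 held 3 libraries per age and experiment 2 held 4 per age. Libraries are named here by age, experiment and replicate, so that replicate 4 of the aged libraries in experiment 2 is aged 2.4. The labels do not state that each library is a separate mouse, nor whether animals were pooled, so the p-values measure the spread between these libraries, which may be technical. The Ion AmpliSeq mouse panel was used, which amplifies a short stretch of each transcript, and levels are given as CPM, in which reads are divided by the library total after TMM scaling (trimmed mean of M values). Amplicons differ in yield, so levels are compared between libraries and not between genes.

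Gene reads ranged from 8933204 to 13977361 per aged library and from 6710403 to 13604750 per young library. Stab2, the scavenger receptor used in the sort, averaged 1980 ± 164 CPM in aged, against 2106 ± 245 CPM in young libraries (SD, n = 7 each). Of 18 tested LSEC identity markers 15 had log2 fold changes below 0 and 3 above, with a median of −0.14 and 0 called. That median was −0.22 in experiment 1 and −0.063 in experiment 2. Lyve1, a hyaluronan receptor gene, at −0.68, and Fcgr2b, an Fc receptor gene, at 0.58, had an unadjusted p under 0.05. Markers of other cells were present in varying amounts. The summed level of 15 leukocyte markers spanned 743 to 2268 CPM in aged, against 627 to 1398 CPM in young libraries. Targets of olfactory, vomeronasal and taste receptors, which LSECs are not known to use, held 0.146 to 3.18% of gene reads in aged and 0.250 to 3.02% in young libraries.

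A class I molecule consists of a heavy chain, such as those encoded by H2-K1 and H2-D1, and the invariant light chain beta-2 microglobulin, encoded by B2m. Proteasomes cut cytosolic proteins into peptides, the transporter TAP moves these into the endoplasmic reticulum, and tapasin holds empty class I molecules at the transporter until a peptide binds. NLRC5 is the transactivator of class I genes and acts on a promoter module shared by heavy chains, B2m and other genes of the route. LSECs are known for taking up antigen from portal blood and presenting it on class I, often with tolerance of CD8+ T cells as the outcome. In the RefSeq annotation H2-K1, H2-D1, Tap1, Tap2, Tapbp, Psmb8 and Psmb9 all lie on chromosome 17, which holds the mouse MHC, while B2m is on chromosome 2 and Psmb10 and Nlrc5 are on chromosome 8.

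Promoter windows, from 250 bases before to 50 bases after the transcript start, were held for 8 of the 10 genes in a RefSeq table of build GRCm38.p6. Tap2 and Nlrc5 had no entry. The windows of the heavy chain genes, the light chain gene and Tap1 are printed because the levels of these genes are followed together with Nlrc5 across libraries below. Capitals mark matches to 5 short motifs, searched on both strands. These were the CCAAT box, written as its name, the single site TGACG of the cyclic AMP response element, the interferon-stimulated response element (GAAA, any 2 bases, then GAAA again), the gamma-activated sequence (TTCNNNGAA) and the kappaB consensus. The windows lie at chr17:34000298-34000597 on the minus strand for H2-K1 (the first of 2 entries), chr17:35262844-35263143 on the plus strand for H2-D1, chr2:122147437-122147736 on the plus strand for B2m and chr17:34187306-34187605 on the plus strand for Tap1.
H2-K1: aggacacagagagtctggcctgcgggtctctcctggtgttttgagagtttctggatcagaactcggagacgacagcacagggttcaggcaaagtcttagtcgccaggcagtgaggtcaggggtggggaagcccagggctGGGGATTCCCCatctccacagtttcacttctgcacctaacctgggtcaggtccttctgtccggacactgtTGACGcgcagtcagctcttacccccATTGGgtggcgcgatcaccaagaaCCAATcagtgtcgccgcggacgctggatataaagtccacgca
H2-D1: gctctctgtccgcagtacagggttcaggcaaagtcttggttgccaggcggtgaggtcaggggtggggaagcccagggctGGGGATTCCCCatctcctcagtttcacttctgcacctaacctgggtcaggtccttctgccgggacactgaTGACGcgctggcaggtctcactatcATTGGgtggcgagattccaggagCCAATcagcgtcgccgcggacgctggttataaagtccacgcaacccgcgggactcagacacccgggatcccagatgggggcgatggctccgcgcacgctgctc
B2m: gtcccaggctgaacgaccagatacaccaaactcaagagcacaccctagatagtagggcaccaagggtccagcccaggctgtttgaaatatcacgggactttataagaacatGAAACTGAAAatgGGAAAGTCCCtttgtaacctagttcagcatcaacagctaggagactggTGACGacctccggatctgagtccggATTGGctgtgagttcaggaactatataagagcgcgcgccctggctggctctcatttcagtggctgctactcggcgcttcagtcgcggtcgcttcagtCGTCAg
Tap1: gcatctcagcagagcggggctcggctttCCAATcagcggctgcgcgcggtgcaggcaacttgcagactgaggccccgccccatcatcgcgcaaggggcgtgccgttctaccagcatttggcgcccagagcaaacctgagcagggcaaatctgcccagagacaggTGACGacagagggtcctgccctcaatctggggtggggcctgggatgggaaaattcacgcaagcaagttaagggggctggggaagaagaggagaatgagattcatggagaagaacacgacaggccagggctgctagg

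The heavy chain windows shared a run of 47 identical bases, which includes the kappaB match. In H2-K1 and H2-D1 alike the TGACG match began 70 bases after the kappaB match, and ATTGG, the inverted CCAAT box, began 25 bases after TGACG. B2m had the same 3 matches in the same order, with 48 bases from kappaB to TGACG and again 25 bases from TGACG to ATTGG. In B2m the response element match GAAACTGAAA stood before the kappaB match, and it was the only such match in the 8 windows. Looser forms of this element were not searched, so a window without a match may still hold one. The Tap1 window overlapped that of Psmb9 by 275 bases on the opposite strand, so the TGACG and CCAAT matches of both genes are the same bases. Over the 8 windows, CCAAT was found in 6, TGACG in 5, kappaB in 3, and the gamma-activated sequence in 1, that of Psmb8. Among all 27025 windows in the table the shares were 37.9% for CCAAT, 21.0% for TGACG, 4.35% for kappaB, 8.47% for the gamma-activated sequence and 3.49% for the interferon-stimulated response element. Psmb10 had no match to any of the 5 motifs. A kappaB match reads on both strands in the heavy chain windows, where matches 1 base apart overlap, and no other matches overlapped. These are matches of letters and not measured binding.

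The age comparison asks which transcripts of LSECs differ between aged and young mice. Of the 10 class I genes 0 were called different, where 0.162% of all tested targets were. Their fold changes, aged over young, lay between 0.895 for B2m and 1.11 for Psmb9, and every gene's 95% interval stayed within 1.5-fold in either direction. The lowest end of any interval was 0.694 for H2-K1 and the highest was 1.45 for Tap2. Over both experiments aged and young values overlapped for all 10 genes.

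A call needed a Benjamini-Hochberg adjusted p under 0.05 over all tested targets, in edgeR's quasi-likelihood test with the experiment as a term. It called 23 of 14168 targets, 0.0776% of all being higher in aged and 0.0847% lower, a share at which 0 called of 10 does not set these genes apart. At an unadjusted p under 0.05 it was 0 of the 10 genes, against 6.77% of all targets. DESeq2 and limma-voom also called 0 of the 10. The log2 fold changes were above 0 for 4 genes and below 0 for 6, with a median of −0.0079 beside −0.0023 for all tested targets. With no TMM scaling those of H2-D1, Tap1, Tapbp and Psmb10 were above 0 as well, while the median of all targets was 0.051. Where the libraries differ in cell number or in RNA per cell, fewer cells of a type and less RNA per cell cannot be told apart in such bulk samples.

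**Figure D1:**
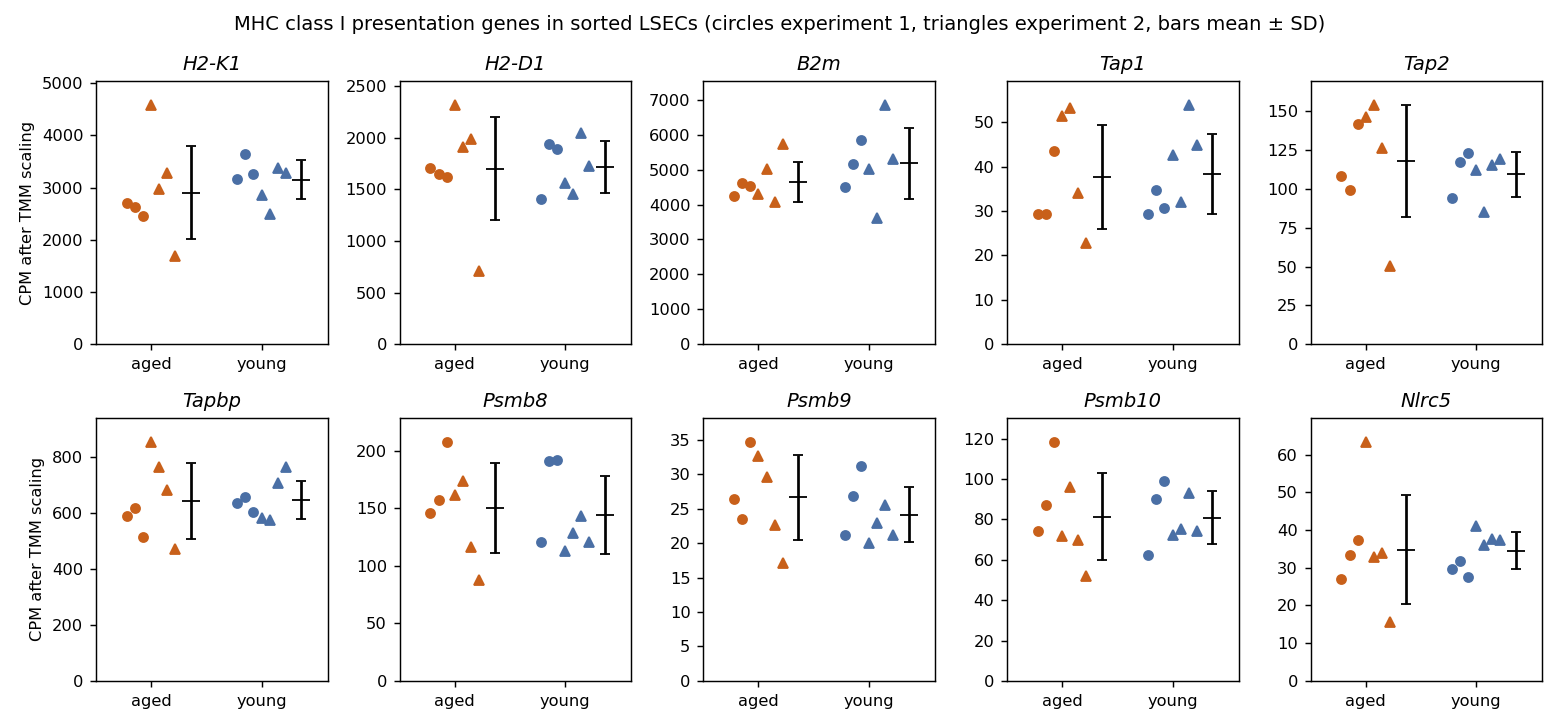
Level of each of the 10 genes in every library, in CPM after TMM scaling, with aged libraries left (orange) and young libraries right (blue), circles for experiment 1 and triangles for experiment 2. Bars give the mean and SD of 7 libraries. Aged and young values overlap in every panel, and the lowest point is an aged library of experiment 2 in 9 of 10 panels.

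The heavy chain gene H2-K1 (NM_001001892.2) had a lowest, median and highest level of 1683, 2711 and 4581 CPM in aged libraries, against 2499, 3253 and 3646 CPM in young libraries. The extremes were both aged libraries of experiment 2, aged 2.4 at the bottom and aged 2.1 at the top, with all young libraries between them. Its log2 fold change was −0.13 (SE 0.187, edgeR adjusted p = 0.9996), at 2898 ± 891 CPM in aged, against 3153 ± 372 CPM in young libraries (SD, n = 7 each). H2-D1 (NM_010380.3), the other classical heavy chain gene of this strain, had 714, 1708 and 2319 CPM in aged libraries, against 1410, 1732 and 2046 CPM in young libraries. Again aged 2.4 was lowest and aged 2.1 highest, and the group means of 1702 ± 499 CPM in aged, against 1720 ± 250 CPM in young libraries differed by less than either SD (log2 fold change −0.015, SE 0.207). The heavy chain genes have near-identical stretches in common with each other and with the Q region genes, and how reads shared between targets were counted is not given in the sources used here, so their counts are uncertain.

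B2m (NM_009735.3), the light chain gene, had 4064, 4526 and 5723 CPM in aged libraries, against 3607, 5169 and 6854 CPM in young libraries. It had the lowest unadjusted p of the 10, at 0.310 in edgeR's quasi-likelihood test, with a log2 difference of −0.16 between aged and young (SE 0.152, adjusted p = 0.9996). In 1 of 7 aged libraries it stood above the young mean of the same experiment. That library was aged 2.4, the one in which the other 9 genes were at their lowest of 14. B2m was also the only one of the 10 with a smaller SD in aged (564 CPM) than in young libraries (1019 CPM).

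Tap1 and Tap2 encode the subunits of the peptide transporter. Tap1 (NM_001161730.1) had 22.8, 34.1 and 53.2 CPM in aged libraries, against 29.4, 34.8 and 53.9 CPM in young libraries, with a log2 fold change of −0.013 (SE 0.192). Tap2 (NM_011530.3) had 50.5, 126 and 154 CPM in aged libraries, against 84.8, 116 and 123 CPM in young libraries. For Tap2, 4 of 7 aged libraries lay above the highest young one and aged 2.4 lay below every other library. Its log2 fold change was 0.11 (SE 0.200, edgeR adjusted p = 0.9996). Without aged 2.4 that of Tap2 was 0.24 (SE 0.123, adjusted p = 0.634), which was not called.

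Tapbp (NM_001025313.1) encodes tapasin, the bridge between class I and the transporter. It had 471, 618 and 854 CPM in aged libraries, against 576, 634 and 762 CPM in young libraries. It was the steadiest of the 10, with an SD within groups of 0.24 on the log2 scale, and its log2 fold change was −0.014 (SE 0.129). The spread of the 10 genes within groups ran from that value to 0.46 for Nlrc5, with a median of 0.34 beside 0.42 for all tested targets.

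Psmb8, Psmb9 and Psmb10 encode the catalytic subunits that turn a standard proteasome into an immunoproteasome. Psmb8 (NM_010724.2) had 87.4, 157 and 208 CPM in aged libraries, against 113, 129 and 192 CPM in young libraries (log2 fold change 0.060, SE 0.160). Psmb9 (NM_013585.2) had 17.1, 26.4 and 34.7 CPM in aged libraries, against 20.03, 22.9 and 31.2 CPM in young libraries. Its log2 fold change of 0.15 (SE 0.173, edgeR adjusted p = 0.9996) was the highest of the 10, and 5 of 7 aged libraries were above the young mean of their experiment. Psmb10 (NM_013640.3) had 51.8, 74.4 and 118 CPM in aged libraries, against 62.6, 75.0 and 99.1 CPM in young libraries (log2 fold change −0.0031, SE 0.155). For all 3 subunits the highest library was aged 1.3 and the lowest aged 2.4.

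Nlrc5 (NM_001033207.3), the transactivator gene, had 15.7, 33.4 and 63.4 CPM in aged libraries, against 27.5, 36.1 and 41.1 CPM in young libraries. The lowest value rests on 151 reads, the smallest count of any of the 10 genes in any library. Its means were almost equal, at 34.8 ± 14.5 CPM in aged, against 34.5 ± 4.90 CPM in young libraries (SD, n = 7 each), with a log2 fold change of 0.023 (SE 0.224). Aged 2.4 and aged 2.1 held both ends of the range, and the other 12 libraries lay between 27.1 and 41.1 CPM.

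**Figure D2:**
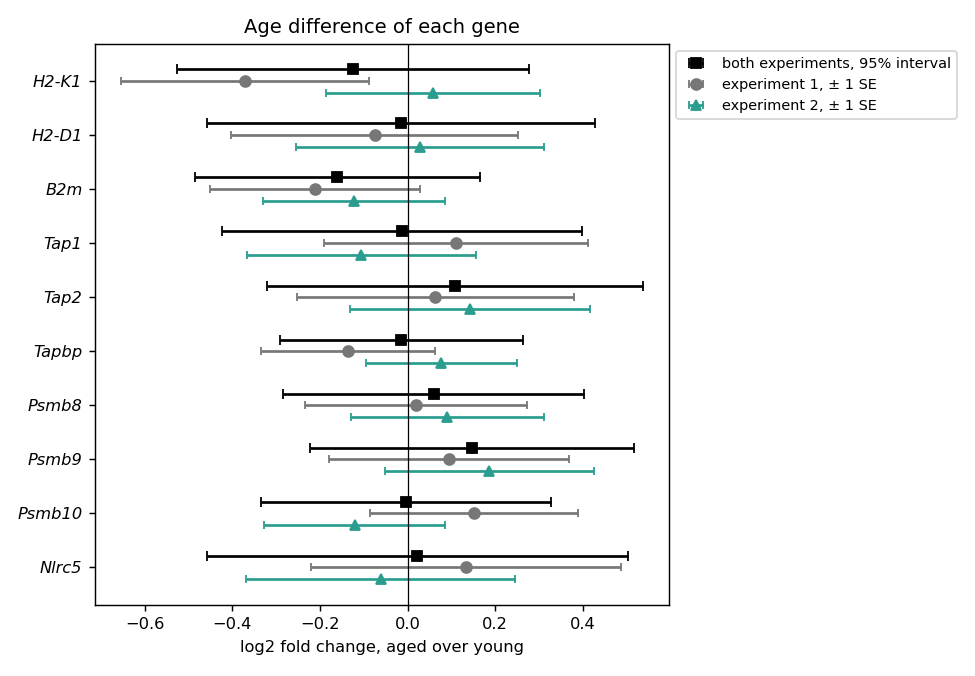
Log2 fold change, aged over young, of each gene over both experiments with its 95% interval (black squares), in experiment 1 (grey circles) and in experiment 2 (green triangles), the last pair with 1 SE either side. All 10 black intervals cross 0, and the experiments have opposite signs for 6 genes.

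The same comparison was made within each experiment. In experiment 1, 0 of the 10 genes were called, where 0% of all targets were, and in experiment 2 it was 0 of 10, where 0.00706% of all targets were. The sign was the same in both experiments for 4 of the 10 genes, namely B2m, Tap2, Psmb8 and Psmb9. The difference between the experiments was largest for H2-K1, whose log2 fold change was −0.37 (SE 0.283) in experiment 1 and 0.059 (SE 0.245) in experiment 2. The test of that difference gave an unadjusted p of 0.270 and an adjusted p of 0.9998 in edgeR, and 0% of all targets were called by it. In experiment 1 all 3 aged libraries, at 2711, 2618 and 2455 CPM of H2-K1, were below all 3 young libraries, at 3170, 3646 and 3253 CPM. In experiment 2 the aged libraries spanned 1683 to 4581 CPM and the young libraries 2499 to 3371 CPM.

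Single libraries were high or low for many of the genes at once. Relative to the mean of its experiment, aged 2.4 had a median log2 deviation of −0.68 over the 10 genes, from −1.19 for H2-D1 to 0.22 for B2m. Aged 2.1 had a median of 0.40, reaching 0.85 for Nlrc5, and aged 1.3 had a median of 0.29. The medians of the 7 young libraries stayed between −0.20 and 0.18. Aged 2.4 was the lowest of 14 libraries for 9 genes, while aged 2.1 was highest for 4, aged 1.3 for 3, young 2.3 for 2 and aged 2.2 for 1. For 9 of the 10 genes the SD in CPM was larger in aged than in young libraries. Leaving out aged 2.4 turned 4 log2 fold changes from below 0 to above 0, to 0.12 for H2-D1, 0.097 for Tap1, 0.075 for Psmb10 and 0.054 for Tapbp.

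**Figure D3:**
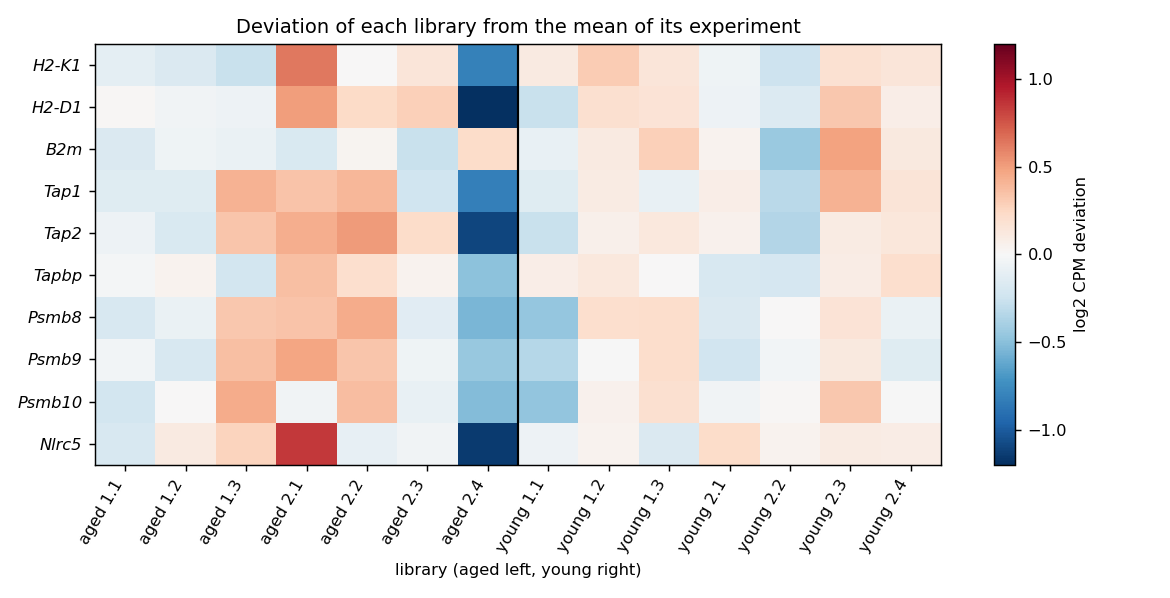
Deviation of each library's log2 CPM from the mean of its experiment, for the 10 genes (rows) and 14 libraries (columns, aged left and young right of the black line), blue for below and red for above. The column of aged 2.4 is blue for 9 genes, down to −1.19, and red for B2m at 0.22.

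Aged 2.4 differed from other aged libraries in further measures too. Its receptor read share was 2.81% of gene reads, against at most 0.632% in the other aged libraries of experiment 2, and the share was as high in young 2.2, at 2.92%. In experiment 1 the share was 3.18, 2.49 and 3.01% in aged 1.1, aged 1.2 and aged 1.3, and 3.02, 1.20 and 2.59% in young 1.1, young 1.2 and young 1.3. A high share was thus common, and in aged 1.3 it stood beside a median deviation of 0.29 over the class I genes. The summed MHC class II, Kupffer cell and B cell markers of aged 2.4, at 74.4, 70.7 and 5.62 CPM, were the lowest of the aged libraries. Over 14 libraries the receptor share and Tapbp moved oppositely, with Pearson's r = −0.75 (100000 permutations, adjusted p = 0.0279) and Spearman's rho = −0.73 (permutation adjusted p = 0.0475). The r was −0.57 within experiment 1, −0.78 within experiment 2 and −0.74 without aged 2.1 and aged 2.3, the farthest libraries. Computed on CPM without TMM scaling it was −0.34. Of the 10 relations with the receptor share, 2 passed by Pearson's r, the second being Tap1 (r = −0.66, adjusted p = 0.0496), and 2 by Spearman's rho, the second being H2-D1 (rho = −0.75, adjusted p = 0.0475). The r of Tap1 was −0.14 within experiment 1 and −0.62 within experiment 2, and that of H2-D1 was −0.64 and −0.79. Without aged 2.1 and aged 2.3 it was −0.80 for Tap1 and −0.45 for H2-D1. Without TMM scaling r was −0.40 for Tap1 and −0.29 for H2-D1, so all 3 relations were weaker without the scaling. P-values were adjusted over the 30 relations computed in all. Their permutations ran over all 14 libraries and not within experiments, so a difference between experiments also enters these p-values. With the receptor share as a term, 0 of the 10 genes were called, and the SE of H2-K1 was 0.117 with a log2 fold change of −0.19 (edgeR adjusted p = 0.559).

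Cells other than LSECs carry class I genes as well, so their markers are given beside these results, although the sort had selected CD45-dim cells. All 14 tested leukocyte markers and all 9 MHC class II genes had log2 fold changes above 0, with medians of 1.96 and 2.27, as had all 9 Kupffer cell and all 7 B and plasma cell markers tested, with medians of 1.70 and 3.32. At an unadjusted p under 0.05 were 10 of 14 leukocyte, 9 of 9 class II, 7 of 9 Kupffer cell, 7 of 7 B and plasma cell and 0 of 9 T and NK cell genes, against 6.77% of all targets, and 0 of them were called at the adjusted threshold. Markers of one cell type can vary together across libraries, so the genes behind these counts are not separate evidence. Summed leukocyte markers had a lowest, median and highest of 743, 1460 and 2268 CPM in aged libraries, against 627, 908 and 1398 CPM in young libraries (log2 difference 0.49, two-sided exact permutation p = 0.0743, adjusted p = 0.257 over 8 measures, the smallest p the test allows being 0.00143). Without aged 1.1, aged 1.2 or aged 2.4 that unadjusted exact p was 0.0357, 0.0429 or 0.0343. Much of this sum came from Arhgdib, which averaged 702 CPM in aged, against 649 CPM in young libraries (log2 fold change 0.097, SE 0.109). Summed Kupffer cell markers had 70.7, 405 and 982 CPM in aged libraries, against 60.01, 119 and 600 CPM in young libraries (log2 difference 1.22, exact permutation p = 0.106). Among Kupffer cell genes Clec4f, Vsig4, Folr2 and Cd163 had log2 fold changes of 1.75, 1.85, 1.87 and 2.34 and were higher in all 7 aged libraries than the mean of the young libraries of the same experiment. C1qb averaged 29.8 CPM in aged, against 24.3 CPM in young libraries, and the target of its partner C1qa had at most 5 reads in every library. Summed MHC class II markers had 74.4, 315 and 2452 CPM in aged libraries, against 75.2, 104 and 967 CPM in young libraries (log2 difference 1.48, exact permutation p = 0.129). B and plasma cell markers summed to between 5.62 and 414 CPM in aged, against between 2.38 and 79.5 CPM in young libraries (exact permutation p = 0.101). Without aged 2.4 the exact p-values, again unadjusted, were 0.0200 for Kupffer cell, 0.0271 for class II and 0.0343 for B and plasma cell markers, and without young 2.1 that of Kupffer cell markers was 0.0443. T and NK cell markers summed to between 17.9 and 936 CPM in aged, against between 12.3 and 365 CPM in young libraries, with aged 1.3 highest. Hepatocyte markers reached 7535 CPM in aged 1.3, against at most 2182 CPM in young libraries. For these measures the exact permutation p-values were 0.506 and 0.614, and for dendritic cell markers, at 728 to 1223 CPM in aged, against 935 to 1121 CPM in young libraries, it was 0.706. Of 7 tested dendritic cell markers 4 had log2 fold changes above 0 and 3 below, and 0 were called. Clec9a at 0.79 and Ly6d at 1.63 were the 2 with an unadjusted edgeR p under 0.05. Bst2 and Zbtb46, whose levels were the highest of the 7, were at −0.30 and −0.19.

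With the leukocyte sum as a term in the model, the log2 fold changes of all 10 class I genes were below 0, from −0.28 for Tap1 to −0.018 for Tapbp, and 0 were called (edgeR adjusted p = 1 each). Those of Tap2, Psmb8, Psmb9 and Nlrc5 thereby changed sign. Across libraries 0 of 10 relations with the leukocyte sum passed by either coefficient. The largest was that of Tap1, with r = 0.59 (permutation adjusted p = 0.0810) and rho = 0.60 (permutation adjusted p = 0.112), and r was 0.96 within experiment 1, 0.34 within experiment 2 and 0.47 without aged 1.3 and aged 2.2. Much of the leukocyte sum came from Arhgdib, so the term and these relations need not follow the other leukocyte markers. The part of other cells in the class I levels was not tested beyond these values.

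Nlrc5 was compared with each of the other 9 genes across libraries, since its product acts on class I promoters. Tap1 went with it most steadily, with r = 0.76 (permutation adjusted p = 0.0219) and rho = 0.72 (permutation adjusted p = 0.0475) over 14 libraries. The r of Tap1 was 0.76 in experiment 1 and 0.76 in experiment 2, 0.79 among aged and 0.76 among young libraries, and 0.64 without aged 2.4 and aged 2.1. By Pearson's r 4 more passed, H2-D1 (0.77), H2-K1 (0.75), Tap2 (0.73) and Tapbp (0.68), each with a permutation adjusted p of 0.0496. None of these 4 passed by Spearman's rho, which lay between 0.37 and 0.38, and without aged 2.4 and aged 2.1 their r was −0.093, −0.17, 0.081 and 0.039, so they rest on those libraries. Psmb8, Psmb9, Psmb10 and B2m passed by neither coefficient, and B2m had an r of −0.28. Nlrc5, like Tap1, went against the receptor share, with r = −0.54 (permutation adjusted p = 0.103), or −0.28 without TMM scaling. With the leukocyte sum r was 0.42 for Nlrc5 and 0.59 for Tap1. The part of these measures in the relation of Nlrc5 with Tap1 was not tested. Tap1 and Psmb9, whose windows overlap, had an r of 0.49 (permutation adjusted p = 0.168), with 0.86 among aged and −0.23 among young libraries, a relation added after the overlap was seen.

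**Figure D4:**
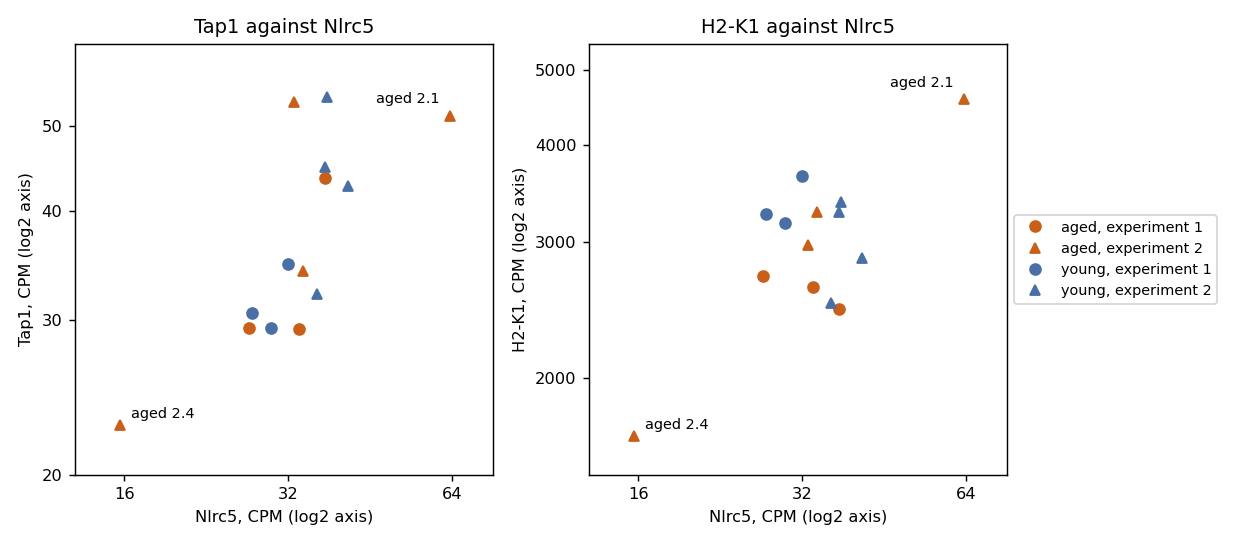
Level of Tap1 (left) and H2-K1 (right) against that of Nlrc5 in each library, in CPM on log2 axes, aged in orange and young in blue, circles for experiment 1 and triangles for experiment 2. Aged 2.4 and aged 2.1 hold both ends of the Nlrc5 axis, while Tap1 is highest in young 2.3, at 53.9 CPM. Without aged 2.4 and aged 2.1 r is 0.64 for Tap1 and −0.17 for H2-K1.

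Ratios within a library do not depend on the scaling between libraries, and 4 were formed after the levels had been seen. H2-K1 to B2m averaged 0.643 ± 0.239 in aged and 0.619 ± 0.0846 in young libraries, with 0.294 in aged 2.4 and 1.06 in aged 2.1 at the ends. H2-D1 to B2m averaged 0.378 ± 0.131 in aged and 0.336 ± 0.0387 in young libraries (SD, n = 7 each; exact permutation p = 0.903). In aged 2.4 it was 0.125, while the next lowest aged library was at 0.356. Without aged 2.4 the log2 difference of this ratio was 0.32, against 0.066 with it, and the exact permutation p was 0.0157, which was not adjusted for the libraries that could have been left out.

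The other ratios set immunoproteasome subunits against the standard subunits they replace. Psmb9 to Psmb6 averaged 0.374 ± 0.0869 in aged and 0.337 ± 0.0625 in young libraries (exact permutation p = 0.249). Psmb10 to Psmb7 averaged 0.461 ± 0.153 in aged and 0.414 ± 0.0590 in young libraries (exact permutation p = 0.561). Over the 4 ratios the adjusted p was 0.926 for each. Psmb5, the counterpart of Psmb8, was not analysed here because no target carried that name.

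**Figure D5:**
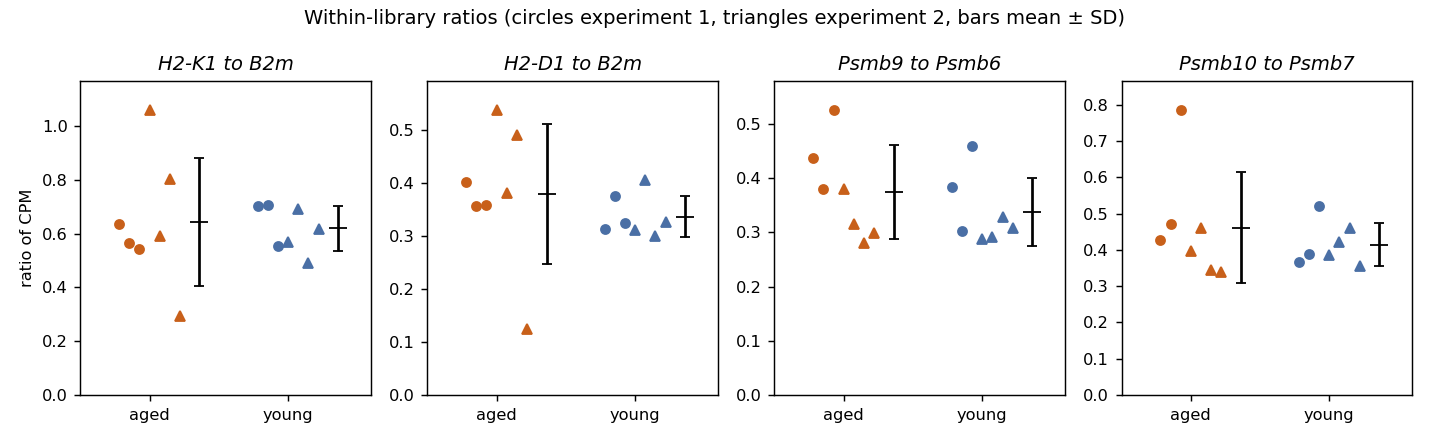
Ratio of 2 genes' CPM within each library, aged left (orange) and young right (blue), circles for experiment 1 and triangles for experiment 2, with the mean and SD of 7 libraries. Both heavy chain to B2m ratios have their lowest point in aged 2.4, at 0.294 and 0.125.

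The neighbouring steps of the route were read from lists of related genes, which were chosen with results of these data known. Of 10 tested genes for peptide loading and trimming, 0 were called, 1 was above 0 and 9 below, with a median log2 fold change of −0.14. That median was −0.29 in experiment 1 and 0.0043 in experiment 2. Of all tested targets 7022 were above 0 and 7146 below. Hspa5, an endoplasmic reticulum chaperone, was at −0.56 (SE 0.365), and Sec61a1, of the protein channel of that compartment, at −0.23 (SE 0.148). By experiment, Hspa5 was at −1.38 in experiment 1 and 0.054 in experiment 2. Tapbpl, the tapasin relative that edits peptides, was at −0.15 (SE 0.105), and the trimming peptidase Erap1 at −0.13 (SE 0.107). Of 14 proteasome genes, 0 were called, 4 were above 0 and 10 below, with a median of −0.091. It was −0.19 in experiment 1 and −0.041 in experiment 2. The smallest p-values there were those of the core particle genes Psma4 (−0.21, SE 0.103), Psma6 (−0.23, SE 0.122), Psmb2 (−0.21, SE 0.124) and Psmb4 (−0.27, SE 0.175).

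Of 23 nonclassical and class I-like genes with a target 17 were tested and 0 called, with 8 above 0, 9 below and a median of −0.0032. Those with the smallest p were H2-Bl (0.48, SE 0.311), H2-T24 (−0.26, SE 0.175), H2-Q10 (0.93, SE 0.632) and Azgp1 (0.97, SE 0.675), all without a call. H2-Bl was low, at 1.37 CPM in aged, against 0.946 CPM in young libraries. H2-Q10 and Azgp1 were at 1.71 and 2.24 in experiment 1, and at 0.36 and 0.044 in experiment 2. The part of hepatocytes in these values was not tested. The Q region genes H2-Q4, H2-Q6 and H2-Q7 had 145, 60.3 and 43.2 CPM in aged 2.4, below their aged means of 272, 220 and 96.7 CPM. H2-Q6 averaged 220 ± 87.3 CPM in aged, against 222 ± 43.3 CPM in young libraries, and these paralogs share the counting limit of the heavy chain genes.

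Of 21 tested regulators of class I transcription 0 were called, 6 were above 0 and 15 below, with a median of −0.081. It was −0.19 in experiment 1 and 0.021 in experiment 2. The interferon-responsive activator gene Irf1 had 456 ± 120 CPM in aged, against 662 ± 283 CPM in young libraries, which is −0.54 on the log2 scale (SE 0.219, edgeR unadjusted p = 0.0267, adjusted p = 0.673). Ezh2, which encodes a histone methyltransferase that silences class I genes in some tumours, was at −0.88 (SE 0.351, unadjusted p = 0.0253). Jak2, a kinase of interferon gamma signalling, was at 0.20 (SE 0.111), and Ciita, the transactivator of class II genes, at 0.96 (SE 0.571), none of them called.

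Among 10 tested genes of endocytic cross-presentation, the route by which taken-up antigen reaches class I, 0 were called, with 5 above 0, 5 below and a median of 0.029. Rab3b, of a family of vesicle GTPases, had 70.0 ± 24.7 CPM in aged, against 114 ± 23.6 CPM in young libraries (log2 fold change −0.75, SE 0.199, edgeR adjusted p = 0.362). By experiment it was at −1.26 in experiment 1 and −0.38 in experiment 2. Wdfy4, needed for cross-presentation in dendritic cells, was at 2.86 (SE 0.980), the lysosomal reductase gene Ifi30 at 1.12 (SE 0.385) and Cybb, a subunit of the phagocyte oxidase, at 2.15 (SE 0.924), without a call. These 3 are also strong in leukocytes, whose summed markers are given above.

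Of 7 tested genes that LSECs and other presenting cells use to restrain or engage T cells, 0 were called, with 4 above 0, 3 below and a median of 0.070. Lgals9, which encodes the inhibitory lectin galectin-9, had 356 ± 59.3 CPM in aged, against 476 ± 107 CPM in young libraries (log2 fold change −0.41, SE 0.0979, edgeR adjusted p = 0.234). DESeq2, which called 146 targets in all, called Lgals9 (log2 fold change −0.42, adjusted p = 0.000105) and Rab3b (−0.76, adjusted p = 0.0245). The costimulatory genes Cd86 and Cd80 were at 1.78 (SE 0.689) and 0.97 (SE 0.448) on the log2 scale and the adhesion gene Vcam1 at 0.29 (SE 0.231), without a call.

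The 5 genes outside these lists whose standardised profile over the 14 libraries was most like the average of the 10 were Grk2, Cyb561a3, Plcg1, Aga and Tprgl. Likeness was the root mean square difference of standardised log2 levels, with experiment means removed, over 11588 targets of at least 5 CPM. It was 0.296 for Grk2 and Cyb561a3, 0.338 for Plcg1, 0.339 for Aga and 0.340 for Tprgl, where a smaller value is more alike. Among the 10 genes themselves it was smallest for Tap2 (0.354) and largest for B2m (1.28), the gene that was high where the other 9 were lowest. The 5 outside genes were thus closer to the average than any of the 10, so this profile over libraries is not particular to class I genes.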

How the data were processed

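RNA of sorted LSECs was sequenced as amplicon libraries in 14 samples, and the authors deposited raw, unnormalised read counts per RefSeq transcript target. HTSeq 0.6.0 and DESeq2 1.18.1 are named in the submitters' processing notes. For the aligner, build, strand setting and shared reads, nothing is stated (not given in the sources used here). Of all reads 1.24 to 3.04% were bookkeeping entries of the counting tool and were left out. Targets were named through the RefSeq table of GRCm38.p6 (18124 with and 4324 without the version) or GENCODE (114), and 1368 stayed unnamed.

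The analysis used edgeR 4.0.16 (R 4.3.3): filterByExpr by age, TMM, and a quasi-likelihood F test over all 14168 kept targets with Benjamini-Hochberg adjustment and a term for the experiment. A model of 4 means gave the contrast in each experiment and their difference. Standard errors were derived from each log2 fold change and F statistic. Alternatives were DESeq2 1.42.0, limma-voom (limma 3.58.1), other scalings, filters and terms, and leaving out each library. Sums and ratios were compared by exact permutation within experiments of log2 values. Relations between log2 CPM (prior count 2) were tested by 100000 permutations over all 14 libraries, not within experiments. The steps were tested on simulated data. Amplicon reads carry no molecular identifiers, so counts are not independent molecules.

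The class I genes and the lists were chosen with earlier results of these data known. The genes named are the 10 class I genes, up to 4 per list with the smallest p, and the 5 most similar profiles. Stab2, Psmb6, Psmb7, Arhgdib, C1qa, C1qb, H2-Q4, H2-Q6 and H2-Q7 were named after their values were seen. Aged 1.1 and aged 1.2 were the most alike pair of one group, with a chi-square of 6.35 per degree of freedom, against 19.6 to 124 for the other pairs. Since reads are not independent molecules, that value does not show whether they are separate samples. They were counted separately, as labelled, and summing them was an alternative.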

Additional observations from a re-analysis of the deposited data

Results flagged for a closer look

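The ratio of Psmb10 to Psmb7 in aged 1.3, at 0.787, lay far from the other 6 aged libraries, whose ratios ran from 0.338 to 0.473, and from the young libraries, at 0.356 to 0.522. The gap to its nearest neighbour was 0.700 of the group's range, above the limit of 0.568 for 7 samples. In all 28 groups were examined in this way, and chance marks about 1 in 20. Aged 1.3 also had the highest summed hepatocyte, leukocyte, and T and NK cell markers of the aged libraries, at 7535, 2268 and 936 CPM, and the part of these cells in the ratio was not tested.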

How the results depend on the processing

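In every alternative tried 0 of the 10 class I genes were called, and only leaving out aged 2.4 and young 2.2 together brought 1 of them to an unadjusted p under 0.05. Every class I value rests on 151 reads or more; how much of the spread between libraries is counting or amplification noise was not tested.

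Over all targets the number called was 23, and it was 46 with no scaling, 146 by DESeq2, 12 with no experiment term, 59 with the receptor share as a term, 3 with the leukocyte sum as a term, 36 without aged 2.4 and young 2.2, and 4 with aged 1.1 and aged 1.2 summed. With 1 library left out it ran from 4 to 29, being 4 without aged 1.1 or aged 1.2, 5 without aged 2.1 or young 2.4, 8 without aged 2.2, 9 without aged 2.3 or young 1.3, 10 without young 1.1 and 11 without young 2.3. In experiment 1 it was 1 with no scaling and 2 without aged 2.4 and young 2.2. In experiment 2 it was 3 with RLE size factors, with a filter by age and experiment (added after seeing the data) or without that pair, 5 with no scaling, 0 when fitted alone with or without a block, and 1 to 3 with 1 library left out. DESeq2 called 1 gene each for cross-presentation and T cell contact.

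With the replicate number as a block 5 targets were called, 0 of them class I genes, and Nlrc5 stood at −0.067. Same-numbered aged and young libraries had deviations correlated between −0.38 and 0.78, and 3 of 7 aged libraries correlated best with the young library of their own number, so the numbers were not taken to pair the libraries.

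Log2 fold changes near 0 changed sign in several settings, always without a call. With no scaling H2-D1, Tap1, Tapbp and Psmb10 were at 0.031, 0.053, 0.037 and 0.058. With the filter by age and experiment they were at 0.0016, 0.0017, 0.0064 and 0.0081, and without aged 2.4 and young 2.2 at 0.073, 0.041, 0.015 and 0.071. Tap1 and Psmb10 were at 0.010 and 0.015 with aged 1.1 and aged 1.2 summed, and Psmb10 at 0.0074 with no experiment term. Nlrc5 was at −0.0040 over all targets with a read, −0.081 by limma-voom and −0.048 with the receptor term. With the leukocyte term Tap2, Psmb8, Psmb9 and Nlrc5 were at −0.17, −0.19, −0.077 and −0.20.

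With 1 library left out the ranges that crossed 0 were −0.11 to 0.12 for H2-D1, −0.11 to 0.097 for Tap1, −0.086 to 0.054 for Tapbp, −0.021 to 0.14 for Psmb8, −0.096 to 0.075 for Psmb10 and −0.19 to 0.16 for Nlrc5. The log2 difference of summed leukocyte markers stayed above 0, at 0.29 to 0.59, and that of B and plasma cell markers at 1.53 to 2.82. Those of Kupffer cell (0.88 to 1.65), class II (0.98 to 2.05) and T and NK cell markers (0.015 to 1.27) did too. The ranges of such measures that crossed 0 were −0.094 to 0.039 (dendritic cell), −0.11 to 0.63 (hepatocyte) and −0.53 to 0.26 (receptor share). For the ratios they were −0.17 to 0.16 (H2-K1 to B2m), −0.050 to 0.32 (H2-D1 to B2m) and −0.015 to 0.16 (Psmb10 to Psmb7). The dendritic cell sum was at 0.0064 with no scaling. The cause of these changes was not tested.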
